A study of Homo sapiens with 8 samples.

Results

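The IL-1 response described here was measured in SW1353 cells that carried a control siRNA. SW1353 is an established human chondrosarcoma line that serves as a stand-in for chondrocytes, the cells of cartilage. Its members were chosen by label, as the siCon + IL-1 arrays and the siCon arrays, which are 4 of the 8 arrays of the series. The siCon + IL-1 cells (n = 2) received the non-targeting AllStars siRNA and, 24 h later, IL-1alpha for 6 h. The siCon cells (n = 2) received the same siRNA and no IL-1. The study's methods add that transfected cells were kept overnight without serum after these 24 h and before stimulation, a longer interval than the labels give. The remaining 4 arrays came from cells given a QIAGEN siRNA against HDAC6, a mostly cytoplasmic deacetylase, with IL-1 (siHDAC6 + IL-1, n = 2) or without it (siHDAC6, n = 2), and are used only where named. A figure legend of the study gives a longer exposure to IL-1 than the labels do. All 8 arrays thus come from transfected cells of 1 line, at 1 time of stimulation. The study's methods describe duplicate treatments, without saying whether these were separate cultures, so the p-values reflect no more than the scatter between these samples. Gene names come from an annotation table of another version of the array than the study's methods name, and rest on that table.

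IL-1 is a cytokine released in inflamed joints. Its receptor acts through the adaptor MYD88 and the IRAK kinases, which lead to the transcription factors NF-κB and AP-1 and to the MAP kinases. NF-κB is held back by inhibitor proteins such as IκBα (NFKBIA), and many of its targets encode chemokines, cytokines and matrix-degrading proteinases. In cartilage IL-1 is best known for driving matrix breakdown and for shutting down the programme of the differentiated chondrocyte, and far less is usually said of the transcripts that decline.

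Per array 14315 to 16659 probes were above background, the fewest on siCon + IL-1 replicate 2, and replicates of a group correlated at 0.988 to 0.992. Levels are normalized log2 signals, on which 1 unit is a 2-fold difference, and 11182 genes were tested. HDAC6 itself read 6.63 and 6.46 on the siCon + IL-1 arrays and 6.36 and 6.32 on the siCon arrays (adjusted p = 0.303), against 4.84 and 4.87 on the siHDAC6 + IL-1 arrays and 5.14 and 4.87 on the siHDAC6 arrays. Of 13 chondrocyte markers 6 were measured, and the others were too dim to test or had no symbol in the annotation used. Above background on all 4 arrays were 4 of the 6: SOX9, COL9A1, COL11A1 and HAPLN1. COL2A1, the collagen that defines cartilage, was above background on 1 of 2 siCon + IL-1 arrays and 1 of 2 siCon arrays. Of 9 mesenchymal or fibroblast markers 8 were measured, 7 of them above background on all 4 arrays, and COL1A2 (-0.40) and PDGFRB (-0.63) were called lower on the log2 scale. Of the leukocyte markers 4 of 11 were measured, and CD68 (0.40) and LYZ (0.63) were called higher on the log2 scale and CSF1R (-0.46) lower.

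IL-1 raised some genes much further than it lowered any. At an adjusted p below 0.05 (limma), IL-1 raised 1048 genes of siCon cells (9.37% of those tested) and lowered 1252 (11.2%). The median change was 0.90 on the log2 scale among the raised genes and -0.58 among the lowered genes. Over 2-fold, 465 genes were higher (4.16%) and 114 lower (1.02%), and over 4-fold 151 were higher and 4 lower. Over 8-fold, 77 genes were higher and 0 were lower, and 0 also fell this far among the 2302 genes lower at an unadjusted p under 0.05. The largest rise was CXCL10 (8.96) and the largest fall RGCC (-2.63). The counts over 2-fold depended on the processing. They were 222 higher and 18 lower with the authors' log2 values, and 369 higher and 235 lower with median scaling. Both siCon + IL-1 arrays lay above both siCon arrays for 2325 genes (20.8%) and below them for 4368 (39.1%), and the median over all genes was -0.09 on the log2 scale (-0.25 with median scaling). The number of lowered genes depended on the arrays used: it was 529 without siCon replicate 1, 544 without siCon replicate 2, 624 without siCon + IL-1 replicate 2 and 712 in a fit of these 4 arrays alone. The raised genes then outnumbered the lowered ones, with 769 raised without siCon replicate 1, 737 without siCon replicate 2, 823 without siCon + IL-1 replicate 2 and 864 in the fit of 4 arrays. The count of genes over 2-fold lower was 105 to 170 with 1 array left out, and at least 103 of the 114 remained called in each such fit.

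Raised and lowered genes were spread over the range of levels before stimulation. With the tested genes ranked by siCon level into 4 bins of like size, 306 genes were raised and 94 lowered in the lowest bin, 270 and 318 in the next, 259 and 405 in the one after and 213 and 435 in the highest. The lowest bin holds genes that were measured because they are above background elsewhere and that have little room to fall, so its split was partly set by the measurement. Of the 114 genes over 2-fold lower, 0 came from this bin, and 114 of 114 were above background on both siCon arrays. Of the 465 genes over 2-fold higher, 328 were above background on both siCon arrays. In all, 156 genes were below background on both siCon arrays and above it on both siCon + IL-1 arrays (145 of them called higher), and 297 showed the opposite pattern (97 of them called lower). The array with the fewest detected probes, siCon + IL-1 replicate 2, is 1 of the 2 on which such losses are counted, and its part in their number was not tested.

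**Figure D1:**
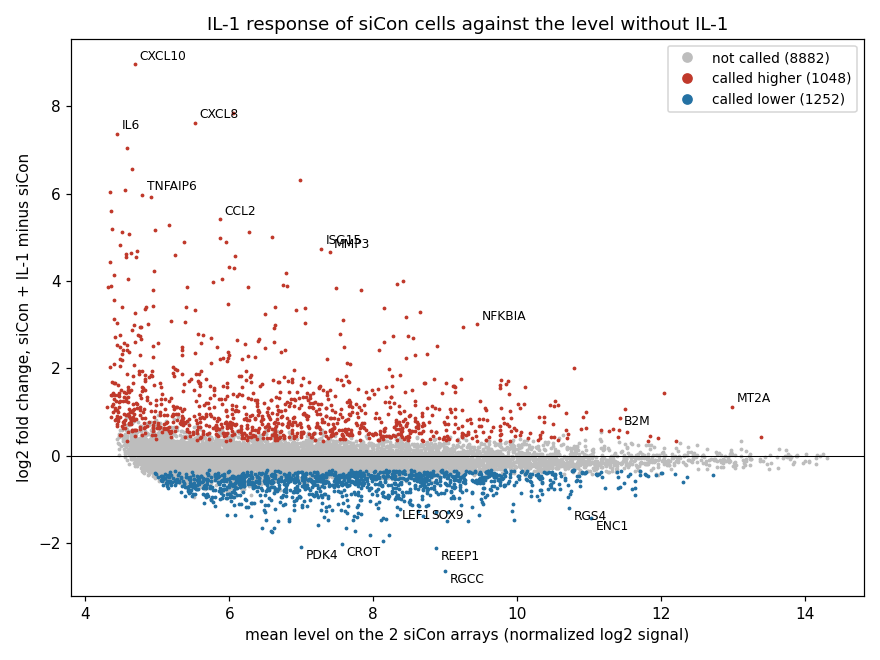
Each point is 1 of 11182 genes, with its mean normalized log2 signal on the 2 siCon arrays on the x axis and its log2 fold change (siCon + IL-1 minus siCon) on the y axis. The 1048 raised genes (red) reach 8.96 and the 1252 lowered genes (blue) reach -2.63; of the genes over 2-fold lower 0 lie in the lowest of 4 level bins, where little room is left for a fall.

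Chemokines led the response. CXCL10, which attracts T cells, read 13.68 and 13.62 in siCon + IL-1 cells against 4.68 and 4.68 in siCon cells, where it was not above background, so the rise was at least 419-fold (adjusted p = 1.23e-08). CXCL8 (IL-8), which attracts neutrophils, read 13.14 and 13.14 in siCon + IL-1 cells and 5.43 and 5.61 in siCon cells (7.62 on the log2 scale, standard error 0.12). CCL8, a monocyte chemokine, stood at 13.95 and 13.82 in siCon + IL-1 cells and 6.03 and 6.07 in siCon cells. The stimulated and unstimulated arrays of these genes lay far apart, with replicates close together. Of 12 CC chemokines and CX3CL1 measured, 10 rose and 0 fell, against 9.37% and 11.2% of all genes. Among the 10 were CCL3 (at least 102-fold), CCL2 (5.41 on the log2 scale) and CCL3L3 (at least 78.3-fold). Probes for CCL3, CCL3L1 and CCL3L3 may not separate these near-identical genes. Of the neutrophil-attracting CXC group 3 of 4 rose, with CXCL3 at 0.35 and not called, and CXCL6 (at least 1.44-fold) lost its call without siCon replicate 1 or siCon replicate 2.

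Cytokines followed. IL6, a driver of acute inflammation, read 11.75 and 11.86 in siCon + IL-1 cells and 4.44 and 4.44 in siCon cells, at least 117-fold higher. In the IL-1 family 8 of 9 genes rose, with IL36G (at least 43.4-fold) and IL1B itself (at least 24.8-fold) in front. Its antagonist IL1RN rose as well, to 7.92 and 7.91 against 4.58 and 4.44 in siCon cells. Of 17 TNF superfamily genes 7 rose, against 9.37% of all genes. They include TNFSF13B (4.60), the B-cell factor BAFF, and TNFSF10 (at least 14.3-fold), the death ligand TRAIL. TNFRSF21, a death receptor, fell by 0.94 on the log2 scale. TNF was at least 2.69-fold higher. For the receptor chain IL1R1 and the kinase IRAK1 the values were 0.38 and -0.01, neither called.

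The NF-κB system rose with its own inhibitors. Of 19 subunits and inhibitors 14 rose and 0 fell, against 9.37% and 11.2% of all genes. Their median log2 fold change was 1.68. NFKBIA, the inhibitor IκBα, read 12.37 and 12.53 in siCon + IL-1 cells against 9.33 and 9.55 in siCon cells (3.01, standard error 0.12, adjusted p = 1.45e-06). TNFAIP3, the A20 brake on the pathway, rose by 4.23, MAP3K8 by 3.40 and the subunit RELB by 3.07 on the log2 scale. The upstream kinase subunits CHUK, IKBKB and IKBKG gave 0.30, 0.01 and 0.17 and were not called. Downstream of the receptor, MYD88 (2.22), IRAK2 (3.25) and the RNase ZC3H12A (4.29), which cuts inflammatory mRNAs, rose, and the ubiquitin ligase PELI2 fell to 6.56 and 6.18 in siCon + IL-1 cells against 7.90 and 7.64 in siCon cells.

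**Figure D2:**
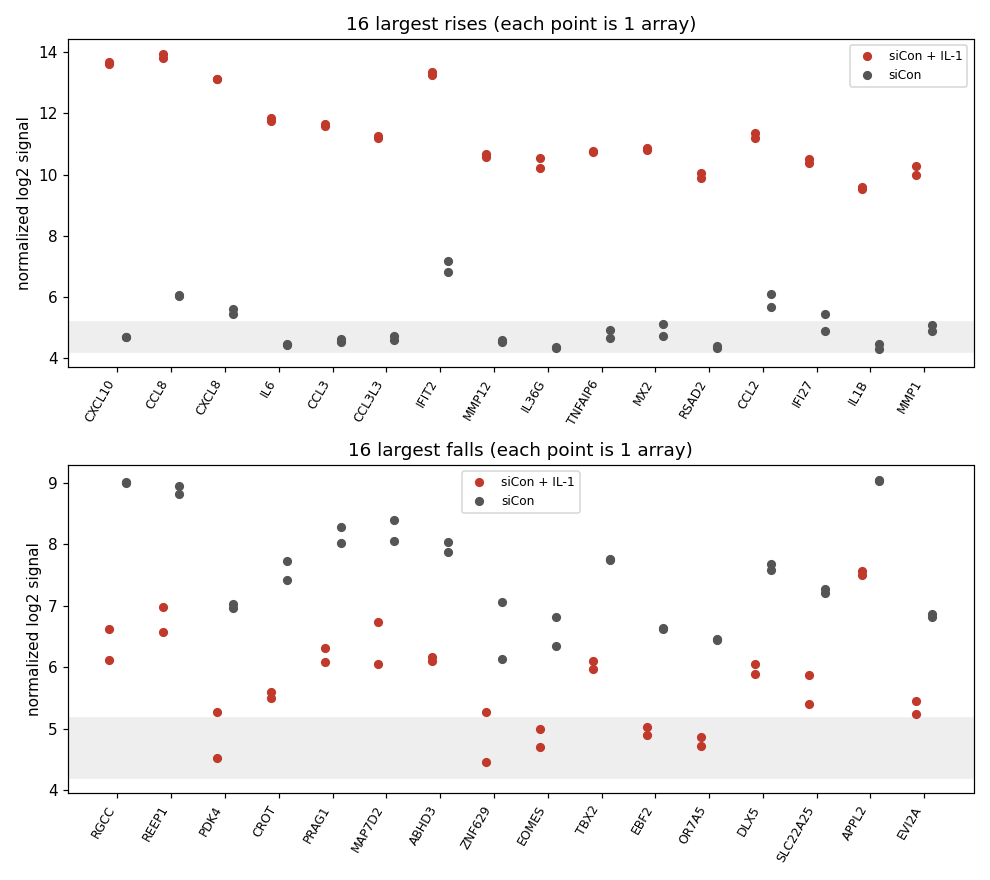
Normalized log2 signal of the 16 largest rises (top) and 16 largest falls (bottom) on each siCon + IL-1 array (red) and each siCon array (grey), 1 point per array; the grey band lies below the highest of the per-array lowest detected signals. Most raised genes start inside the band, whereas the lowered genes start above it. Only genes whose 2 groups of arrays do not overlap could be chosen for this figure.

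Antiviral genes of the interferon response rose together: 42 of 42 measured were higher, against 9.37% of all genes. Their median was 2.97 on the log2 scale. IFIT2, which blocks translation of viral RNA, reached 13.24 and 13.37 in siCon + IL-1 cells against 6.80 and 7.17 in siCon cells. MX2 rose by 5.93, IFI27 by 5.28, ISG20 by 5.11 and IFIT3 by 5.01 on the log2 scale, and RSAD2 (viperin) at least 32.7-fold. The guanylate-binding proteins, GTPases that attack intracellular microbes, were higher for 6 of 6, led by GBP4 (10.38 and 10.18 in siCon + IL-1 cells, 5.36 and 5.39 in siCon cells). Antigen presentation rose alongside, with 8 of 11 genes of the immunoproteasome and of peptide loading higher, among them TAP1 (3.29), TAP2 (2.38) and PSMB9 (2.02). Of 15 interferon signalling factors 12 rose, including IRF1 (2.59), JAK2 (1.83) and IRF9 (1.56). IFNB1, which encodes interferon beta and was singled out after its values were seen, read 5.25 and 5.35 in siCon + IL-1 cells and 4.46 and 4.41 in siCon cells, at least 1.29-fold higher.

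The promoters of the raised genes carried the letters that NF-κB, the interferon-activated factors and AP-1 are known to recognise more often than promoters at large. Promoters of 300 bases (250 before and 50 after the start, RefSeq, GRCh38.p14) were matched for 9182 of the tested genes and searched on both strands. The interferon-stimulated response element, written as GAAANNGAAA, was found in 64 of the 356 promoters of genes over 2-fold higher, in 0 of the 87 of genes over 2-fold lower and in 2.95% of all. The κB motif was found in 17.1%, 12.6% and 9.91% of these, and the AP-1 motif TGANTCA in 9.27%, 4.60% and 4.84%. Further motifs served as a comparison. The CCAAT box was found in 34.6%, 37.9% and 37.7%, and the TEAD motif GGAATG in 12.1%, 11.5% and 10.9%. The E-box CACGTG was found in 7.02%, 10.3% and 10.3%, and the E2F motif TTTCGCGC in 0.28%, 0.0% and 1.05%. These last 2 were thus rarer in the genes over 2-fold higher than in all promoters. All of these are counts of letters and not of bound sites. The stretches below lie upstream of the start of genes described above and show how motifs are combined in some raised genes that hold them. Matches to the κB, interferon and AP-1 motifs are in capitals (κB and interferon matches can lie on the opposite strand).
IL6, chr7:22727112-22727151 (+), 1 κB match: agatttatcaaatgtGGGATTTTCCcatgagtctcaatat
NFKBIA, chr14:35404806-35404845 (-), 1 κB match: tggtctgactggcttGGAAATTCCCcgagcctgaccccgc
TNFAIP3, chr6:137867177-137867228 (+), 2 κB matches: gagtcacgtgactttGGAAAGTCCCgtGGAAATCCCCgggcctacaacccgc
CXCL8, chr4:73740417-73740453 (+), 1 AP-1 match: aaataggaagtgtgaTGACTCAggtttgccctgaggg
TNFAIP6, chr2:151357448-151357484 (+), 1 AP-1 match: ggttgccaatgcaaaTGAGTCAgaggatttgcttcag
IFIT3, chr10:89327826-89327899 (+), 2 interferon element matches: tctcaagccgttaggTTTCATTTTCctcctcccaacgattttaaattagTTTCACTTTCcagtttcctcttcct
IFI27, chr14:94110613-94110665 (+), 2 interferon element matches: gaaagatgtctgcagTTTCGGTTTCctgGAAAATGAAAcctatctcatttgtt
CXCL10, chr4:76023595-76023733 (-), 1 interferon element match followed by 2 κB matches: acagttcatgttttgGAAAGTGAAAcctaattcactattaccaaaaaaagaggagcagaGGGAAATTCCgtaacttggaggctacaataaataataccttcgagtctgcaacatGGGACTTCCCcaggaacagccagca
TAP1, chr6:32853752-32853853 (-), 2 overlapping interferon element matches followed by 1 κB match: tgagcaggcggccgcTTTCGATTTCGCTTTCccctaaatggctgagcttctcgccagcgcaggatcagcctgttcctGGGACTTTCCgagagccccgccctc
Other large rises, among them CCL8, CCL3, CCL3L3 and IL36G, held 0 matches in their upstream bases. CXCL10, the largest rise, and TAP1 hold both an interferon element and κB matches within 250 bases, IL6 and the NF-κB inhibitors hold κB matches, and IFIT3 and IFI27 hold interferon elements. Of the 20 largest rises 14 had a matched promoter, and 8 of these held at least 1 κB, interferon or AP-1 match. Of the 20 largest falls 15 had a matched promoter, and 3 of these held such a match, against 16.8% of all promoters.

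Several metalloproteinases were among the largest rises. Of 11 matrix metalloproteinases 7 rose and 0 fell. MMP1, the interstitial collagenase, read 9.99 and 10.27 in siCon + IL-1 cells and 5.07 and 4.87 in siCon cells (5.16, adjusted p = 3.02e-07). MMP13, the main type II collagenase, was at 9.30 and 9.25 in siCon + IL-1 cells and below background in siCon cells, at least 20.2-fold higher. The stromelysin MMP3 reached 12.03 and 12.06 in siCon + IL-1 cells against 7.50 and 7.29 in siCon cells, and the elastase MMP12 was at least 51.7-fold higher. MMP2, MMP14, MMP15 and MMP16 gave -0.11, 0.40, -0.47 and -0.11 and were not called. The inhibitors moved little: TIMP1 gave -0.16 and TIMP2 -0.24, not called, and TIMP3 0.38, which lost its call when any 1 of 6 arrays was left out. TNFAIP6 (TSG-6), which binds hyaluronan, was at least 56.6-fold higher and the hyaluronan-degrading CEMIP rose by 2.96. Of 10 ADAM and ADAMTS proteinases 2 rose and 2 fell, against 9.37% and 11.2% of all genes. ADAMTS9 (2.41) and ADAM17 (0.62) rose, and ADAMTS1 (-0.67) and ADAM19 (-0.45) fell. The ADAM19 call was lost without siCon replicate 1, siCon replicate 2 or siCon + IL-1 replicate 2. The plasminogen activator PLAT rose by 2.25 on the log2 scale.

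Acute-phase proteins, complement and metallothioneins were further lists with most of their measured members raised, against 9.37% of all genes. Of 10 acute-phase proteins and C/EBP factors 8 rose, among them CEBPD (3.17), SAA2 (at least 5.97-fold) and SAA1 (2.99), and CEBPA fell by 0.83, a call lost without siCon replicate 1. Of 11 complement genes 6 rose, led by CFB (at least 25.8-fold), a factor of the alternative pathway. Metallothioneins, which bind zinc and copper, rose for 4 of 5, including MT1X (13.59 and 13.38 in siCon + IL-1 cells, 11.97 and 12.11 in siCon cells) and MT2A (14.13 and 14.08 in siCon + IL-1 cells, 13.02 and 12.95 in siCon cells), both already among the brightest transcripts without IL-1. Probes of the metallothioneins, and of SAA1 and SAA2, may not separate near-identical genes. The zinc importer SLC39A14 rose by 2.73. Of the inflammation-induced metabolic enzymes IDO1 (at least 8.10-fold) and NAMPT (2.68) rose, whereas the arginase ARG2 fell to 5.78 and 5.89 in siCon + IL-1 cells, against 7.16 and 6.87 in siCon cells. SOD2, the mitochondrial superoxide dismutase, rose by 3.38.

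**Figure D3:**
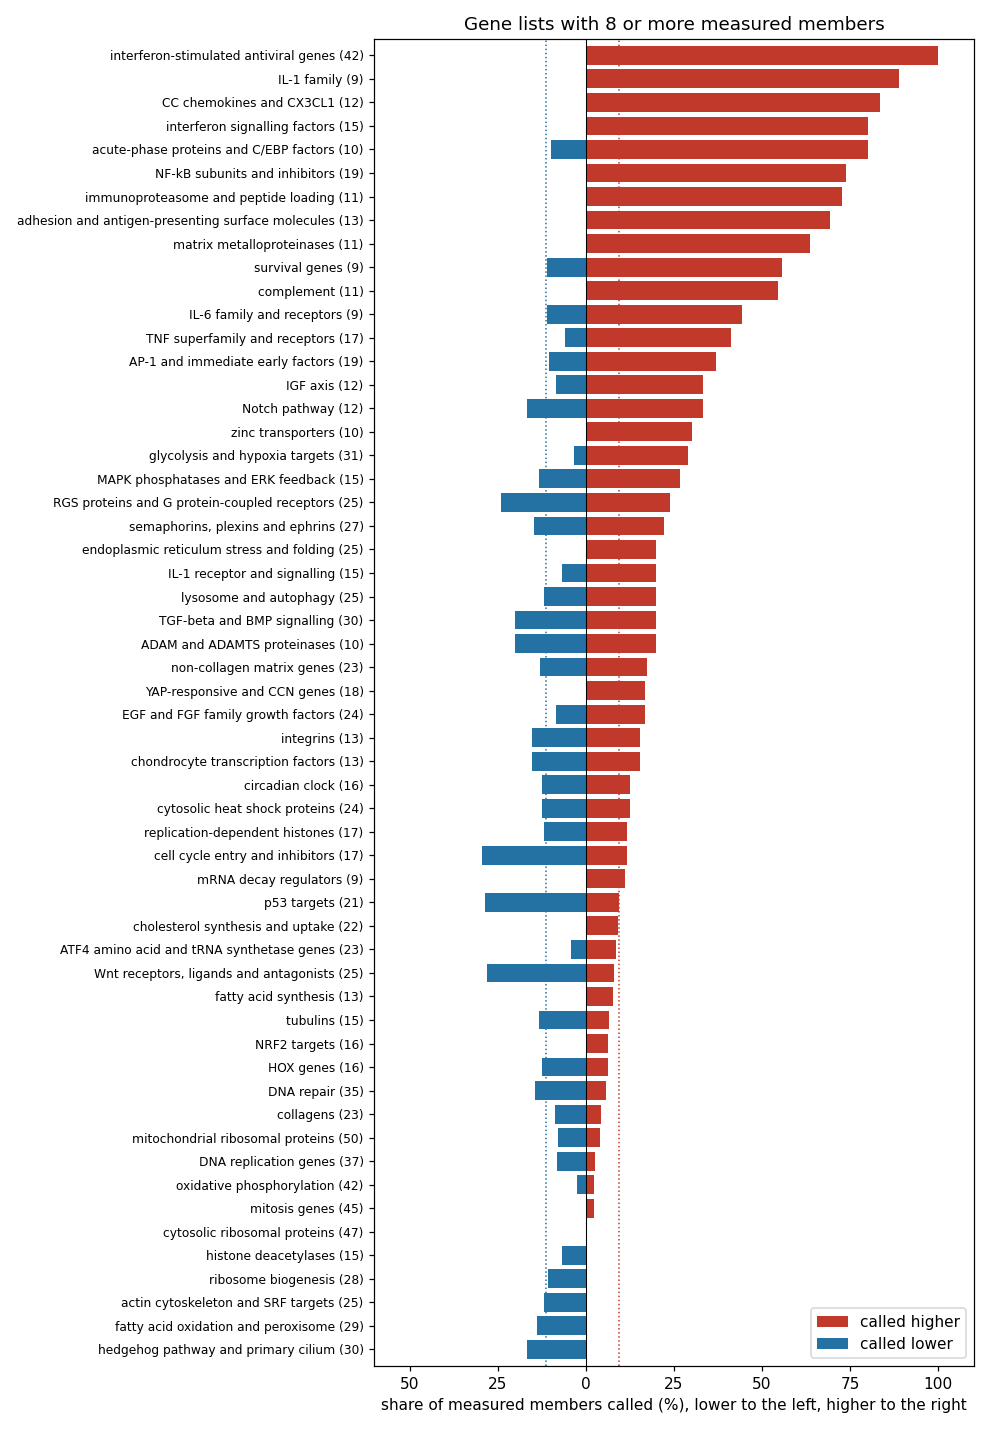
Share of measured members called higher (red, to the right) and called lower (blue, to the left) with IL-1 in siCon cells, for each gene list with 8 or more measured members (number in brackets); dotted lines mark the shares over all tested genes, 9.37% and 11.2%. Immune lists fill the top, where 42 of 42 antiviral genes were raised, and among the lists with most lowered members are those of Wnt signalling (7 of 25), p53 targets (6 of 21) and cell cycle entry (5 of 17).

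Raised genes also lay side by side in the genome. Along the chromosomes (RefSeq, GRCh38.p14), 143 of the 465 genes over 2-fold higher (30.8%) had another such gene next to them among the measured genes, against 6.89% of the other genes. Of the 114 genes over 2-fold lower, 2 (1.75%), PDK4 and DYNC1I1, were next to one another, against 2.03% of the other genes. The runs of raised genes included GBP3, GBP1, GBP2, GBP4, GBP5 and GBP6, the metalloproteinases MMP7, MMP10, MMP1, MMP3, MMP12 and MMP13, the chemokines CCL2, CCL7, CCL8 and CCL1, IFIT2, IFIT3, IFIT1 and IFIT5, and TAP2, PSMB8, TAP1 and PSMB9. The lowered genes were thus scattered, and many of the raised runs are families of related genes.

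RGCC, a regulator of the cell cycle that binds CDK1, read 6.61 and 6.12 in siCon + IL-1 cells against 8.99 and 9.01 in siCon cells, 2.63 lower on the log2 scale with a standard error of 0.16 (adjusted p = 1.97e-05). REEP1, which shapes the tubules of the endoplasmic reticulum, read 6.97 and 6.57 in siCon + IL-1 cells and 8.81 and 8.94 in siCon cells (-2.10). The next 2 falls were enzymes of fuel use. PDK4, the kinase that switches off pyruvate dehydrogenase, read 5.27 and 4.53 in siCon + IL-1 cells and 7.03 and 6.96 in siCon cells (-2.09), the lower of its IL-1 arrays not above background, and CROT, the carnitine octanoyltransferase of peroxisomes, read 5.59 and 5.50 in siCon + IL-1 cells and 7.41 and 7.73 in siCon cells (-2.02). Each of these 4 genes fell over 4-fold, with no overlap between the groups, and each was called with any 1 of the 8 arrays left out.

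The other large falls spread over adaptors, enzymes and transcription factors. The pseudokinase PRAG1 (-1.94, standard error 0.15), the microtubule-associated MAP7D2 (-1.82, 0.22) and the lipid hydrolase ABHD3 (-1.82, 0.10) followed on the log2 scale. APPL2, an endosomal adaptor, read 7.56 and 7.50 in siCon + IL-1 cells and 9.02 and 9.04 in siCon cells. PPP1R3C, which targets a phosphatase to glycogen, fell by 1.49, and ST3GAL5, which makes the ganglioside GM3, fell by 1.48. ZNF629, a zinc finger gene, gave -1.74, but its siCon arrays read 7.06 and 6.13 and its call was lost without any 1 of the 4 arrays compared (highest adjusted p = 0.218, without siCon replicate 1). SLC22A25, OR7A5, EVI2A, FRG2B and EEPD1 completed the 20 largest falls, and OR7A5, an olfactory receptor gene, was at least 2.57-fold lower.

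Some of the large falls were transcription factors of development, singled out here after their values were seen. DLX5, a homeobox factor of skeletal development, read 6.06 and 5.89 in siCon + IL-1 cells and 7.67 and 7.58 in siCon cells (-1.65, adjusted p = 2.35e-05). The T-box factor TBX2 read 5.97 and 6.11 in siCon + IL-1 cells and 7.76 and 7.74 in siCon cells, and EBF2 read 5.03 and 4.90 in siCon + IL-1 cells and 6.63 and 6.62 in siCon cells. EOMES, another T-box factor, was not above background in siCon + IL-1 cells and was at least 2.81-fold lower. SOX9, the master factor of the chondrocyte, read 7.60 and 7.55 in siCon + IL-1 cells and 8.68 and 8.80 in siCon cells (-1.16, standard error 0.12, adjusted p = 3.56e-04). NKX3-2, which acts with SOX9 in cartilage formation, fell by 0.92 and HOXC6 by 1.13 on the log2 scale, 1 of 2 lower among 16 HOX genes. Of 13 chondrocyte transcription factors listed and measured, SOX9 and NKX3-2 were the 2 that fell, and HIF1A (1.09) and RUNX3 (0.53) were higher, but the RUNX3 call was lost without siCon replicate 1, without siCon replicate 2 or without siCon + IL-1 replicate 1. RUNX2, which drives hypertrophy, gave -0.38 and was not called. Over all genes tested 9.37% rose and 11.2% fell, near the shares in the chondrocyte factor and HOX lists. The cartilage collagens COL2A1, COL9A1, COL11A1 and COL11A2 gave -0.01 to -0.40, not called. Their siCon means were 5.05, 5.09, 5.48 and 5.10, and the lowest detected signals of the siCon arrays were 4.90 and 4.97. These collagens thus had little room to fall, and their values cannot show whether IL-1 lowers them. Of 23 collagens COL7A1 (0.78) was higher and COL1A2 (-0.40) and COL13A1 (-0.40) lower, the last 2 lost without any 1 of the 4 arrays compared.

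By number, Wnt signalling held the most called falls of any list, though p53 targets (6 of 21) and cell cycle entry (5 of 17) held slightly larger shares. Wnt ligands bind Frizzled receptors and act in part through β-catenin and the LEF1 factor. Of 25 genes 7 fell (against 11.2% of all genes) and 2 rose (against 9.37%), and 7 or 8 were lower with any 1 array left out. The receptor ROR1 read 5.78 and 6.05 in siCon + IL-1 cells and 7.41 and 7.23 in siCon cells (-1.40), and the ligand WNT5B 7.08 and 7.64 in siCon + IL-1 cells and 8.67 and 8.58 in siCon cells (-1.26). LEF1 fell by 1.18, the Frizzled receptor FZD2 by 1.14, and AXIN2, a feedback inhibitor and common readout of β-catenin, by 1.10; FZD4 (-0.94) and FZD7 (-0.90) made up the 7. ROR2, the sister receptor of ROR1, went the other way, with 8.18 and 8.24 in siCon + IL-1 cells and 7.30 and 7.21 in siCon cells (0.95, adjusted p = 3.81e-04). FZD1 gave 0.53 and was not called without siCon replicate 1, siCon replicate 2 or siCon + IL-1 replicate 1. CTNNB1, which encodes β-catenin, stood at 0.01, WNT5A at -0.40 and FZD6 at -0.44, none called. The median of the 25 was -0.27, against -0.09 for all genes.

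In other growth and patterning pathways the falls were fewer or less stable. Over all genes tested 9.37% rose and 11.2% fell. Of 30 TGF-beta and BMP genes 6 rose and 6 fell, with the ligand BMP4 (7.27 and 7.52 in siCon + IL-1 cells, 8.32 and 8.46 in siCon cells) lower and FST (1.97), BMP2 (1.02) and SMAD3 (0.98) higher; 2 were lower without either siCon array and 3 without siCon + IL-1 replicate 2, and BMP2 lost its call without siCon replicate 2. Of 30 hedgehog and primary cilium genes 5 fell and 0 rose (against 11.2% of all genes lower), among them GLI2, a hedgehog transcription factor (at least 1.28-fold lower), and IFT88 (-0.71), which builds the cilium, and 3 rose without siCon + IL-1 replicate 1. The count of falls was 2 without siCon + IL-1 replicate 2, siCon replicate 1 or either siHDAC6 + IL-1 array, and 3 without siCon replicate 2. Of 27 semaphorin, plexin and ephrin genes 4 fell, a share close to that of all genes, and 6 rose, led by SEMA3C (1.45). Without siCon replicate 1, siCon replicate 2 or siCon + IL-1 replicate 2, the 1 fall that remained was the receptor EPHB4 (-1.05). RGS4, which shortens G protein signals, read 9.61 and 9.45 in siCon + IL-1 cells and 10.73 and 10.71 in siCon cells, whereas RGS20 rose by 1.09. The EGF receptor ligand TGFA fell by 1.01 and its relative BTC was at least 4.49-fold higher.

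**Figure D4:**
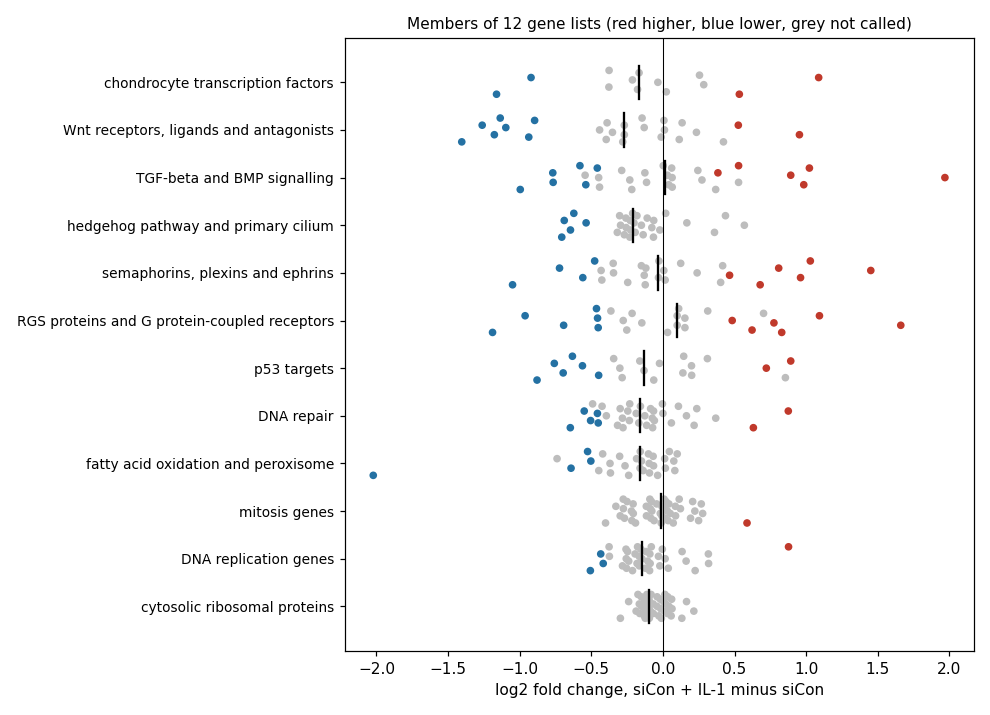
Log2 fold change (siCon + IL-1 minus siCon, x axis) of each measured member of 12 gene lists (rows), with red for called higher, blue for called lower, grey for not called and a black bar at the list's median. The Wnt list has 7 lowered members down to -1.40, CROT stands alone at -2.02 in the fatty acid oxidation list, and the 47 ribosomal proteins lie near 0.

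Genes of growth and upkeep differed by list, and their counts stand against 9.37% raised and 11.2% lowered over all genes. Of 21 p53 targets 6 fell, among them ZMAT3 (-0.88), the repair factor XPC (-0.76) and SESN1 (-0.70), and GDF15 (0.89) and GADD45B (0.72) rose; 3 were lower without siCon replicate 2 or siCon + IL-1 replicate 2. CDKN1A and MDM2, the best-known targets, gave -0.16 and 0.15 and were not called. Of 29 genes of fatty acid oxidation and the peroxisome 4 fell and 0 rose, a share close to the 11.2% of all genes, and apart from CROT these were CAT (-0.64), HADH (-0.53) and PEX6 (-0.50), with 2 lower in all without siCon + IL-1 replicate 2 or either siHDAC6 array. Of 17 genes of cell cycle entry 5 fell by 0.53 or less, among them the kinase CDK4 (-0.47) and its inhibitor CDKN2B (-0.34). The cyclin CCND3 (1.60) and another CDK4 inhibitor, CDKN2D (0.93), rose, and both were called with any 1 array left out. The falls numbered 0 without siCon replicate 1 or siCon replicate 2, 1 without siCon + IL-1 replicate 2, 2 without siCon + IL-1 replicate 1 and 3 without either siHDAC6 array. Of 45 mitosis genes 1 rose and 0 fell, with CDC25B (0.59) called, a call lost without siCon replicate 1, siCon replicate 2 or siCon + IL-1 replicate 2. Of 37 DNA replication genes 3 fell and 1 rose, but 1 was lower without any 1 array other than siCon + IL-1 replicate 1. Of 47 cytosolic ribosomal proteins 0 were called in either direction, at a median of -0.10. Of 42 genes of oxidative phosphorylation NDUFA9 (0.50) rose, though not without siCon replicate 1, siCon replicate 2 or siCon + IL-1 replicate 1, and NDUFS3 (-0.65) fell.

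Among the 10 genes of highest siCon level that fell over 1.5-fold, none was a member of these lists. ENC1, an actin-binding kelch protein, had the largest fall among them, with 9.71 and 9.52 in siCon + IL-1 cells and 11.05 and 11.01 in siCon cells (-1.42, adjusted p = 1.37e-04). ARHGEF3, an activator of RhoA, read 10.82 and 10.65 in siCon + IL-1 cells and 11.70 and 11.57 in siCon cells. The phosphate transporter SLC20A1 (-0.76), the sugar phosphate deaminase GNPDA1 (-0.74), the potassium channel gene KCNK12 (-0.74), PGRMC2 (-0.72), the actin regulator PFN2 (-0.68), CAMLG (-0.62) and DCBLD2 (-0.61) fell by less on the log2 scale. TTC3 (-0.74) was not called without siCon replicate 1 (adjusted p = 0.0502). Each of these genes still read at least 9.52 on both siCon + IL-1 arrays. Among the genes lost to background, TMEM37 was at least 1.98-fold lower and RASD2 at least 1.85-fold lower.

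Genes were also grouped by symbol, after the values were seen, and these counts were not repeated with an array left out. Of 277 genes named ZNF, most of which encode zinc finger proteins, 52 were lower (18.8%, against 11.2% of all genes) and 4 higher (1.44%, against 9.37%). Of 83 genes named FAM 21 were lower (25.3%) and 5 higher (6.02%). Of 43 TRIM genes, many of them ubiquitin ligases of antiviral defence, 12 were higher (27.9%, against 9.37% of all genes) and 3 lower (6.98%, against 11.2%).

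The same comparison in siHDAC6 cells used 4 other arrays. There IL-1 raised 670 genes (5.99%) and lowered 478 (4.27%). Raised in both were 608 genes, 90.7% of those raised in siHDAC6 cells and 58.0% of those raised in siCon cells. Lowered in both were 342 genes, 71.5% of the siHDAC6 list and 27.3% of the siCon list, and 3 were called in opposite directions. Of the 465 genes over 2-fold higher in siCon cells 413 were called higher and 461 were above 0 in siHDAC6 cells, and of the 114 over 2-fold lower 85 were called lower and 114 were below 0. RGCC read 1.64 lower with IL-1 in siHDAC6 cells, PDK4 1.80 lower, SOX9 0.67 lower and EOMES 0.14 lower on the log2 scale, the last not called. The median of the 465 was 1.19 in siHDAC6 cells and 1.57 in siCon cells, and that of the 114 was -0.74 in siHDAC6 cells and -1.18 in siCon cells. Since these genes were chosen on the siCon arrays, the smaller siHDAC6 medians are a description.

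The difference between the 2 responses was called for 13 genes, 12 below 0 and 1 above it. MMP13 rose by 2.36 on the log2 scale in siHDAC6 cells and by 4.64 in siCon cells, a difference of -2.28 (standard error 0.16, adjusted p = 0.00555). For IL6 the rises were 5.09 in siHDAC6 cells and 7.36 in siCon cells. Among the lowered genes the difference was called for CROT, which gave -0.49 in siHDAC6 cells (7.06 and 7.03 with IL-1, 7.57 and 7.50 without) and -2.02 in siCon cells. The number of such genes fell to between 0 and 3 when 1 of 7 arrays was left out (0 without siCon replicate 2, then 2 without either siHDAC6 array or without siHDAC6 + IL-1 replicate 1, and 3 without siCon replicate 1, without siCon + IL-1 replicate 2 or without siHDAC6 + IL-1 replicate 2).

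**Figure D5:**
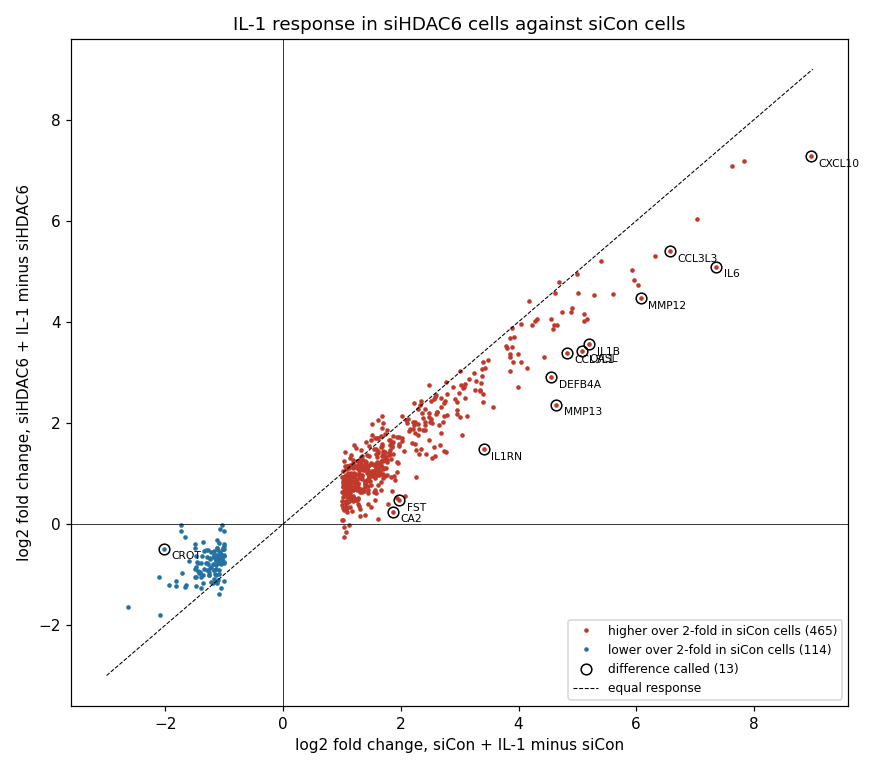
Log2 fold change with IL-1 in siHDAC6 cells (y axis) against that in siCon cells (x axis) for the 465 genes over 2-fold higher (red) and the 114 over 2-fold lower (blue) in siCon cells, with circles around the 13 genes whose responses differ and a dashed line of equal response. The blue points all lie below 0 on the y axis, and 461 of the red points lie above 0.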

How the data were processed

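SW1353 cells were profiled on 8 Illumina BeadChip arrays, 2 per group. The deposited intensity values are probe signals per array with no normalization between arrays, and beside them the authors deposited detection p-values against negative control probes. The deposited log2 values were made by the authors with lumi (version not stated) and were used as an alternative. From the intensities, normexp background correction with control statistics inferred from the detection p-values, quantile normalization and log2 after an offset of 16 (neqc of limma 3.58.1, R 4.3.3) were computed here, so dim genes have understated folds. Probes with a detection p under 0.05 on at least 2 arrays and 1 gene symbol (14483 of 48803 probes; 21212 have no symbol in the annotation table used, which is for another array version than the study's methods name) were averaged per gene, which gave 11182 genes. Group means over the 8 arrays were fitted with lmFit and eBayes, p-values were two-sided, and the Benjamini-Hochberg adjustment ran over all genes. Genes with an adjusted p below 0.05 count as called. The fit was tested on simulated data. Where a group was not above background on both arrays, the bright group's mean was set against the higher of the dim signal and the lowest detected signal, and the fold is given as "at least". The number of arrays limits the precision.

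Named genes were those the study names for this comparison, the 20 largest rises and falls without overlap, the 4 largest rises and falls of each list, the brightest and the gained or lost genes, and genes whose response differed with siHDAC6. Other genes with values, such as list members that were not called, were named after their values were seen. The members and gene lists were chosen with earlier results of these data known. Promoters and gene order came from RefSeq (GRCh38.p14). The alternatives were the deposited log2 values, median scaling, an offset of 50, quantile normalization alone, no or a stricter detection filter (p under 0.01), the brightest probe per gene, a trended robust prior, the 4 siCon arrays alone, the replicate number as a block, and leaving out each array.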

Additional observations from a re-analysis of the deposited data

Results flagged for a closer look

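The response to IL-1 differed with HDAC6 knockdown for 13 genes by a test of the difference itself (limma, adjusted p below 0.05). Given as the siHDAC6 response minus the siCon response on the log2 scale, the difference was -2.28 for the collagenase MMP13, -2.27 for IL6, -1.93 for the receptor antagonist IL1RN, -1.69 for CXCL10, -1.66 for the defensin DEFB4A, -1.66 for the antiviral OASL and -1.64 for IL1B. It was -1.63 for the carbonic anhydrase CA2, -1.61 for MMP12, -1.49 for the activin antagonist FST, -1.43 for CCL3L1 and -1.18 for CCL3L3. For these 12 genes IL-1 raised the level in both kinds of cells or, for CA2, only the siCon comparison was called, and the siHDAC6 value was the smaller. CROT, a peroxisomal enzyme of fatty acid oxidation, had a difference of 1.53, with a smaller fall in siHDAC6 cells. Where 1 array other than siCon + IL-1 replicate 1 was left out, 0 to 3 such genes remained called.

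Probes for which no gene symbol was at hand also responded. Of 3559 such probes above background, 153 were called higher (4.30%) and 179 lower (5.03%) in siCon + IL-1 than in siCon arrays, in a fit on 18045 probes, and 73 were over 2-fold higher and 21 over 2-fold lower. They enter no comparison above.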

How the results depend on the processing

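The direction of the named genes was stable: among 318 called in siCon cells, 0 reversed under any alternative, and calls were lost in 225 gene fits (2946 kept) under the other settings and in 369 (2175 kept) with 1 array left out. These genes were picked on the same arrays, many for large changes, so reversals were unlikely from the start. Among all called genes, 1 raised gene reversed with the brightest probe per gene. The counts moved more. The 1252 lowered genes became 1917 with the authors' log2 values, 712 with only the 4 siCon arrays and 529 to 1044 with 1 array left out, and the 1048 raised genes became 552 with median scaling and 737 to 972 with 1 array left out. The 465 genes over 2-fold higher became 222 with the authors' log2 values and 308 without background correction, while 465 of 465 remained called in both. The 114 genes over 2-fold lower became 18 with the authors' log2 values, 37 without background correction, 46 with an offset of 50 and 235 with median scaling, and at least 113 of the 114 remained called in these. An offset and uncorrected background shrink the folds of dim genes by construction. Raised genes made up 45.6% of the called genes, 38.0% with the authors' log2 values, 37.9% with median scaling and 59.2% at most with 1 array left out. The 13 differences between siHDAC6 and siCon responses became 164 with the authors' log2 values, 79 without background correction, 84 with an offset of 50, 41 with the stricter detection filter, 74 with the trended robust prior and 0 to 9 with 1 array left out. Same-numbered replicates did not deviate together over all genes (correlations of -0.04 to 0.05). With 1 difference per group, this cannot tell whether they were handled together. The fit with the replicate block gave 975 raised genes, 1091 lowered genes and 6 differences. The cause of these shifts was not tested. With 2 arrays per group, small falls near the threshold are the least certain part of the response.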
